A study of Homo sapiens with 2 samples.

Results

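The genes described here encode the 2 cytoplasmic actins and 8 small or abundant proteins that bind actin: the thymosins TMSB4X and TMSB10, the profilin PFN1, the cofilin CFL1, the plastin LCP1, the coronin CORO1A and the Arp2/3 subunits ARPC1B and ARPC2. They were chosen by gene name, and all 10 were found among the 16645 annotated genes with a read, with 986 transcript models in all. The RNA came from GM12878, an established human line of B cells immortalised by Epstein-Barr virus. It was sequenced directly as RNA on an Oxford Nanopore instrument, where each strand enters the pore at its 3′ end and gives 1 read. The series holds 1 group of 2 libraries, named replicates 1 and 2; the labels name no treatment, and nothing in them says that the replicates came from separate cultures, so every p-value below compares the reads of these 2 libraries, whose difference may be technical, and not conditions. Depleted RNA went into the library kit for both, with a reverse transcription step against folded RNA.

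Actin filaments form the cell cortex and drive the shape changes and contacts of lymphocytes. Monomers are held in reserve by thymosins and delivered to growing filament ends by profilin, cofilin severs old filaments, and the Arp2/3 complex starts new branches on existing ones. Coronins act on branched networks and on their turnover, and plastins tie filaments into bundles; CORO1A and LCP1 are the forms typical of blood cells.

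The libraries held 1360368 and 1510998 reads, so 1 read was worth 0.735 and 0.662 on the CPM scale (reads per 1000000 reads of the library), and 3 reads, the limit that a count of 0 allows, were worth 2.21 and 1.99 CPM. Intervals and this limit cover counting error only. The identity of the line was checked on its markers. The B cell markers CD79A, MS4A1, CD79B and PAX5 were read in both libraries, at mean levels of 684, 269.97, 82.9 and 43.0 CPM. Of 16 markers of T cells, monocytes, platelets, red cells, fibroblasts, epithelia and muscle, 11 had no read in either library, and the 16 together had 7.35 and 16.5 CPM.

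The actins and the thymosins are pairs of closely related genes, and their coding sequences were compared. Sequence outside the coding part was not compared, so how far their reads can be told apart was not tested. The sequences are those of the main models in GENCODE release 29, read 5′ to 3′, and capitals mark the bases at which the members of a pair differ. The thymosin coding sequences are 135 bases each, with 37 differences (72.6% identity):
TMSB4X: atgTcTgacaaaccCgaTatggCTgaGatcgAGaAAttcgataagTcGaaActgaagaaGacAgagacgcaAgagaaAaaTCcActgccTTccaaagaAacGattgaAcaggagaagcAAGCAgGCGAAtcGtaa
TMSB10: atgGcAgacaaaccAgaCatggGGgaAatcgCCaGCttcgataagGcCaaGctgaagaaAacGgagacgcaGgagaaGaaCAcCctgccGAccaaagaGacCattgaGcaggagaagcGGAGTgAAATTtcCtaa
The actin coding sequences are 1128 bases each, with 99 differences (91.2% identity), and their first 60 bases, which encode the part of the protein in which the cytoplasmic actins differ, hold 10 of them:
ACTB: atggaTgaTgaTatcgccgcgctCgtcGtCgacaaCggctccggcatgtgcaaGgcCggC
ACTG1: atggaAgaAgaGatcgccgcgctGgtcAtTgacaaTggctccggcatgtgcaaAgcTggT
The coding sequence is a small part of the thymosin transcripts (135 of 628 bases in TMSB4X-204) and the larger part of the actin transcripts (1128 of 1921 bases in ACTB-201).

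The monomer binder TMSB4X and the actin ACTB were the most-read members and the most-read annotated genes of the libraries. TMSB4X (chromosome X, 12975108 to 12977227, plus strand, GRCh38) had 20396 reads in replicate 1 and 24263 in replicate 2, or 14993 and 16058 CPM. ACTB (chromosome 7, 5527147 to 5563784, minus strand) had 21130 and 22713 reads, or 15533 and 15032 CPM. ACTB ranked first in replicate 1 and TMSB4X in replicate 2, and their ranges overlapped. The second cytoplasmic actin, ACTG1 (chromosome 17, 81509971 to 81523847, minus strand), had 5536 and 5374 CPM, a mean of 5455 ± 115 (SD, n = 2). Profilin PFN1 (chromosome 17, 4945652 to 4949061, minus strand), which loads monomers with ATP and feeds filament ends, had 3986 and 3506 CPM.

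The second thymosin and cofilin lay at one level. TMSB10 (chromosome 2, 84905625 to 84906675, plus strand) had 1999.5 and 2462 CPM. CFL1 (chromosome 11, 65823022 to 65862026, minus strand), which severs filaments, had 2189.8 and 2111 CPM, inside the range of TMSB10. The coronin CORO1A (chromosome 16, 30182827 to 30189076, plus strand) had 1367 and 1269 CPM, below CFL1 and above the remaining members in both libraries. The Arp2/3 subunits ARPC1B (chromosome 7, 99374249 to 99394816, plus strand) and ARPC2 (chromosome 2, 218217094 to 218254356, plus strand) had 563 ± 11.9 and 555 ± 50.5 CPM (SD, n = 2), values that did not differ beyond their spread. The plastin LCP1 (chromosome 13, 46125920 to 46211871, minus strand) had 873 and 359 CPM, which placed it above both subunits in replicate 1 and below both in replicate 2. Together the 10 genes took 4.76% of all reads in replicate 1 and 4.73% in replicate 2, with 95% Wilson intervals of 4.73 to 4.80% and 4.69 to 4.76%. In bulk RNA a difference in the number of cells of a kind and in the RNA of each cell cannot be told apart.

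**Figure D1:**
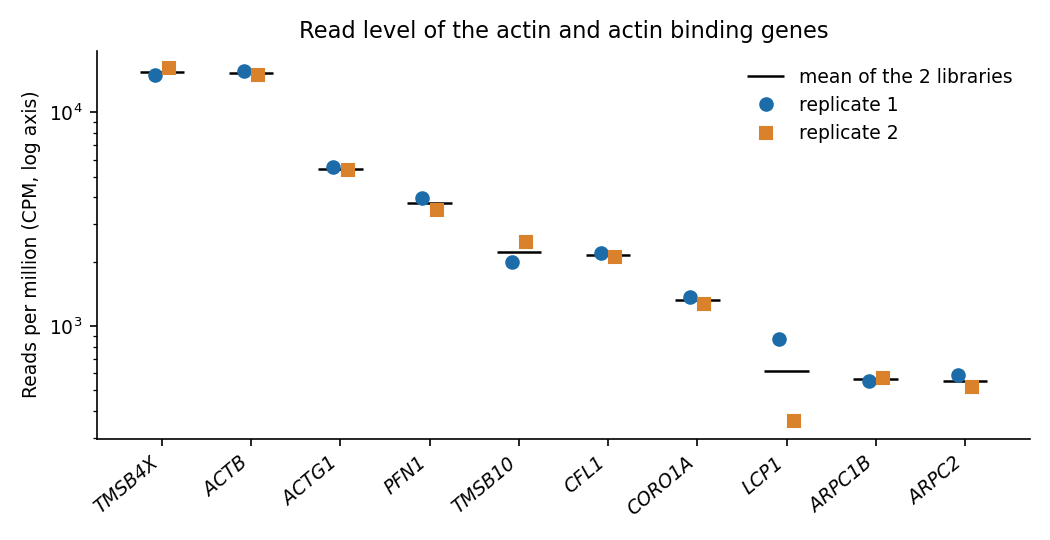
Level (CPM, log axis) of each member in replicate 1 (circles) and replicate 2 (squares), with the mean of the 2 libraries as a line. TMSB4X and ACTB lie highest, between 14993 and 16058 CPM, and LCP1 is the member whose libraries lie farthest apart, at 873 and 359 CPM.

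A direct RNA read stands for 1 strand whatever its length, so these levels were not divided by length. Divided by the length of the most-read known model, the mean levels ran from 24722 CPM per kilobase for TMSB4X, whose main model has 628 bases, through 7955 for ACTB and 4497 for TMSB10 to 163 for LCP1, whose main model has 3787 bases. On that scale TMSB4X stood above ACTB in both libraries (23874 and 25569 against 8086 and 7825 CPM per kilobase), and LCP1 was the lowest member in both.

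In the paralog sets, 7 members held the most reads of their set: ACTB, TMSB4X, PFN1, CFL1, LCP1, CORO1A and ARPC1B. ACTB took 73.7% of the reads of the actin pair in each library (Wilson intervals 73.2 to 74.2% in both), and TMSB4X took 88.2% and 86.7% of the thymosin pair. Counted in known models alone, ACTB took a mean of 64.3% of its pair. PFN1 took 99.7% of the reads it shared with PFN2 in each library, and CFL1 took 95.9% and 96.1% of a set with CFL2 and destrin (DSTN), of which DSTN had 120 and 125 reads. ARPC1B, the form of this Arp2/3 subunit typical of blood cells, took 90.7% and 91.9% against ARPC1A. CORO1A took 81.2% and 77.3% of a set with CORO1B, CORO1C and CORO7. LCP1 took 96.1% of the plastin reads in replicate 1 and 76.3% in replicate 2, when PLS3, the plastin typical of solid tissues, went from 48 to 164 reads and PLS1 from 0 to 5. Known PLS3 reads were 7 in each library. In known models alone, LCP1 took a mean of 95.6% of its set and CORO1A 94.9%, against 86.2% and 79.3% over all models.

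The same order held in 5 further pairs in which a gene typical of blood cells has a widely expressed relative. The GTPase RAC2 took 73.8% of the reads of its pair with RAC1 in each library. The cortactin relative HCLS1 took 98.8% and 95.6% against cortactin (CTTN), and NCKAP1L had 126 and 145 reads against 2 and 0 for NCKAP1. ARHGDIB took 66.1% and 68.3% against ARHGDIA, and WAS took 96.97% and 96.6% against WASL. In all 12 sets the blood cell form or the member listed first held the most reads, also with known models alone, and per length in the 9 sets in which every gene had a known model with reads. The sets and the order within them were listed with earlier results of these data known, so this count is only a description. Muscle actins ACTA1, ACTC1 and ACTG2 had 0 reads in both libraries, and ACTA2 had 40 and 54.

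Between the libraries, 5 of the 10 members differed in read count at an adjusted p of 0.05 (exact binomial test against the library totals, Benjamini-Hochberg over 10634 genes). Over all genes tested 5.05% were called (2.72% higher and 2.33% lower in replicate 2). Among the 318 genes with at least 500 reads in each library, to which all 10 members belong, 42.5% were (21.4% higher and 21.1% lower), so the share among the members was near that of genes of like depth. TMSB4X and TMSB10 were higher in replicate 2, by 0.10 and 0.30 on the log2 scale (adjusted p of 9.06e-11 and 3.19e-14, exact binomial tests). ACTB and PFN1 were lower, with log2 ratios of -0.05 and -0.19 (adjusted p of 0.0170 and 5.07e-09). With DESeq2's size factors in place of library totals, ACTB was no longer called (adjusted p of 0.0922). In known models only, tested against the totals of known reads, PFN1 turned to 0.054 and was not called (adjusted p of 0.195, exact binomial test). The log2 ratio was then -0.61 for ACTB and 0.27 for TMSB4X. Those totals were 760440 and 693006, lower in replicate 2, whereas the library total was higher in replicate 2. On library totals, the main known model had a CPM ratio of 0.949 in TMSB4X and 0.807 in PFN1. Tests without genomic models likewise used the totals of the reads kept. ACTG1, CFL1, CORO1A, ARPC1B and ARPC2 had log2 ratios from -0.19 to 0.04 and were not called. In known models only, ACTG1 (-0.28), ARPC2 (-0.43) and CORO1A (-0.37) were called lower, and without genomic models ACTG1 (-0.42) and CFL1 (-0.12) were. The median log2 ratio of the members was -0.05, against 0.01 over all genes tested.

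LCP1 had the largest difference of the members. It had 1188 reads in replicate 1 and 543 in replicate 2, a CPM ratio of 0.412, or -1.28 on the log2 scale, with an adjusted p of 2.77e-68 (exact binomial test), and -2.18 in known models only. Of the 3879 genes with at least 100 reads, 8 lay as low or lower, LCP1 among them. Apart from mitochondrially encoded genes (names with the prefix MT-), these were LCP1 and ABCF2 (log2 ratio -1.30, with 76 and 34 reads). The 20 other genes with at least 500 reads in each library and a main model near LCP1-201 in length (the shorter at least 0.8 times the longer) had CPM ratios from 0.633 to 1.27, with a median of 1.005.

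The difference went with the number of exons in the model, a split chosen after the values were seen. LCP1 models with 16 or more exons had 613 reads in replicate 1 and 121 in replicate 2, a CPM ratio of 0.178. Models with 10 to 15 exons had 272 and 106 reads (ratio 0.351), those with 5 to 9 exons 176 and 171 (0.875) and those with 2 to 4 exons 123 and 130 (0.952). Among spliced models the ratio was thus lower the more exons the model had.

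Beside LCP1 lies a gene whose reads changed the other way. CPB2 (chromosome 13, 46053195 to 46105033, minus strand) encodes a carboxypeptidase that is made mainly by the liver, and it begins 20886 bases downstream of LCP1 on the same strand. It was chosen after its values were seen. CPB2 had 1490 and 2266 reads, or 1095 and 1499.7 CPM, higher in replicate 2 by 0.45 on the log2 scale with an adjusted p of 7.29e-19 (exact binomial test). All but 1 and 2 of these reads were in a single-exon model of 965 bases, ENCODEHT000228216, and none were in a known model. The liver genes ALB, TTR and FGB had 0 reads in both libraries and APOA1 had 0 and 1. LCP1 itself had 4 and 15 single-interval reads, although its last exon, at 1798 bases, is the longest of the members. Counted together, LCP1 and CPB2 had 2678 and 2809 reads, or 1969 and 1859 CPM, a difference of -0.08 on the log2 scale that was not called, with an adjusted p of 0.261 (exact binomial test, an alternative chosen after seeing the data). The table holds no read coordinates, and where the CPB2 reads align was not tested. Among the other 16 same-strand neighbours within 30000 bases of a member, the highest number of single-interval reads in a library was 47.

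The reads of each member were next divided by how they matched the annotation. A known model has every junction of a transcript in the annotation. The class of incomplete splice matches (ISM) has only a run of them, called suffix when it keeps the 3′ end, prefix when it keeps the 5′ end and both when it fits either. Models in TALON's genomic category overlap a gene without matching its splicing; for these genes nearly all of their reads were in single intervals. NIC and NNC models combine known splice sites anew or use an unannotated splice site.

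Known models held 72.1% of the reads of the 10 genes in replicate 1 (71.8 to 72.5%) and 58.6% in replicate 2 (58.3 to 59.0%). The share was lower in replicate 2 for all 10 members at an adjusted p of 0.05 (Fisher's exact test, Benjamini-Hochberg over 6340 genes). Over all genes tested 26.9% were called lower, and among genes with at least 500 reads in each library 73.3% were. Over all models the fall was largest for LCP1, ACTB and ACTG1, with ARPC2 next. ACTB went from 51.96% (51.3 to 52.6%) to 28.9% (28.3 to 29.5%), ACTG1 from 72.2% to 50.2% and LCP1 from 41.6% (38.8 to 44.4%) to 18.2% (15.2 to 21.7%). It was smallest for PFN1, which went from 93.2% to 90.3% (adjusted p of 8.06e-07, Fisher's exact test) and was not called once genomic models were left out (adjusted p of 0.231). For the most-read known model of PFN1 alone, the difference was -7.34 percentage points (adjusted p of 4.84e-25, Fisher's exact test). Without genomic models the order changed: LCP1 (-22.9 percentage points), ACTB (-21.5) and ARPC2 (-19.2) then fell most, and the difference was -4.59 in ACTG1, -5.82 in CFL1 and -0.34 in TMSB4X. The median difference over the members was -16.2 percentage points, against -8.62 over all genes tested and -8.77 over genes of at least 500 reads in each library. Genes near CFL1, ARPC1B and CORO1A in length had medians of -12.6, -14.5 and -14.5. These members had -12.6, -15.8 and -16.6. ACTB, ACTG1, LCP1 and ARPC2 fell more than genes near them in length. They had -23.0, -21.9, -23.35 and -21.8, against medians of -13.3, -12.8, -12.9 and -14.5. TMSB10 (-9.12 against -0.42) and TMSB4X (-6.61 against -4.63) also fell more, and PFN1 (-2.92 against -12.6) fell less.

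Members of 3 or 4 exons kept most of their reads in known models. TMSB10, with 3 exons and 496 bases, had 90.2% and 81.1%, and TMSB4X had 87.0% and 80.4%. For CFL1 the shares were 85.5% and 72.9%, for ARPC2 70.7% and 48.98%, for ARPC1B 62.1% and 46.3%, and for CORO1A 52.9% and 36.3%. Beyond 4 exons the shares did not follow the exon number throughout. ACTB, with 6 exons, had 51.96% and 28.9%, below ARPC2 and CORO1A, with 11 each, in both libraries. ACTG1, also with 6, had 72.2% and 50.2%, and LCP1, with 16, had the lowest shares (41.6% and 18.2%). PFN1 stood above genes of its own length. Of the 82 other genes with at least 500 reads in each library and a main model of near length (the shorter at least 0.8 times the longer), 74 had a lower known share in replicate 1 and 73 in replicate 2, and their medians were 69.5% and 52.5%. TMSB10 stood low among the 34 genes near its own length, whose medians were 99.4% and 97.7%, and 8 and 7 of them lay below it.

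**Figure D2:**
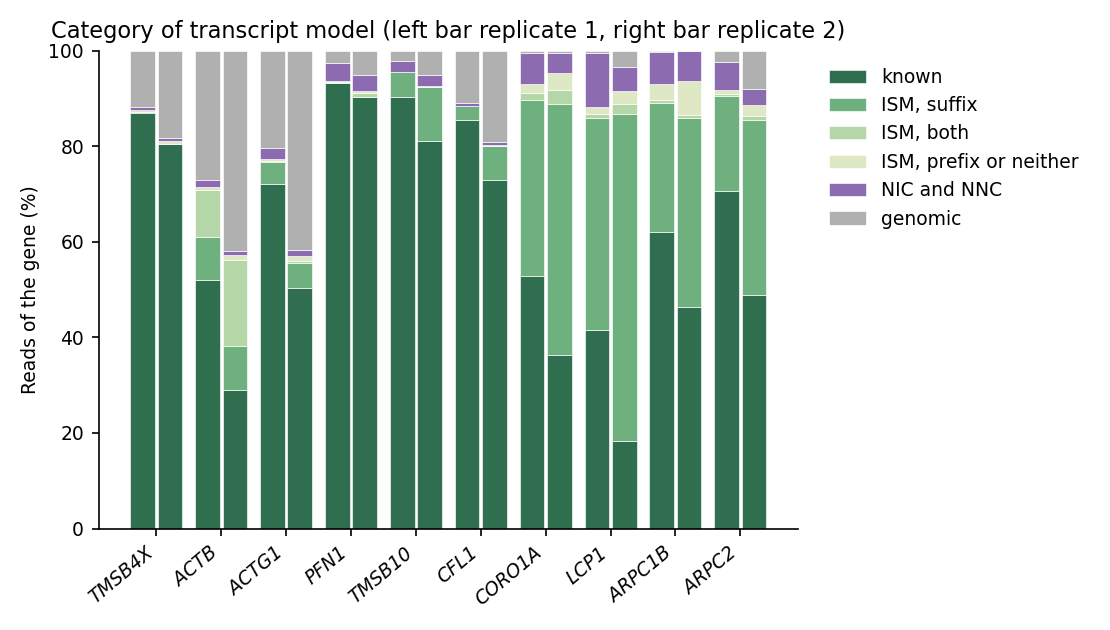
Share of the reads of each member (%) in known, ISM, NIC and NNC, and genomic models, with replicate 1 as the left and replicate 2 as the right bar of each gene. The known share is lower in replicate 2 for all 10 members; genomic models are the largest other category in ACTB and ACTG1, and suffix models in LCP1, CORO1A, ARPC1B and ARPC2.

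The categories that were higher in replicate 2 differed between members. In the 4 members with 10 or more exons the largest of them was suffix models. Their share rose in LCP1 from 44.4% to 68.5%, in CORO1A from 36.8% to 52.7%, in ARPC2 from 19.8% to 36.6% and in ARPC1B from 26.9% to 39.7%. With TMSB10 (5.33% and 11.3%) and CFL1 (2.99% and 7.27%) that made 6 of 10 members called higher (Fisher's exact test), against 11.9% of all genes tested and 61.9% of genes with at least 500 reads in each library. TMSB4X and PFN1 had under 0.2% of their reads in suffix models in both libraries. In these 2 genes a 2-exon model with only the last junctions of the main model is annotated, so its reads count as known. TMSB4X-203 held 6.58% and 9.19% of the reads of its gene, and PFN1-203 held 4.22% and 8.63%. Suffix models were not all shorter in bases than the main model. The most-read one was listed at 735 bases in TMSB10, 2882 in CORO1A and 2999 in ARPC2, against main models of 496, 1803 and 1505. In LCP1, ARPC1B, CFL1, ACTB and ACTG1 it was shorter than the main model.

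In the actins the genomic share rose most. Among known and ISM reads alone, the suffix share was also called higher in ACTB (by 3.503 percentage points) and ACTG1 (by 3.31), which made 8 of 10 members. ACTB had 5738 genomic reads (27.2%) in replicate 1 and 9524 (41.9%) in replicate 2, of which 5727 and 9499 were in a single-exon model, ENCODEHT000234670, listed at 395 bases. ACTG1 had 1539 (20.4%) and 3382 (41.7%). In replicate 2 the most-read genomic model had more reads than the main known model in both actins. For ACTG1, ENCODEHT000541854 had 3380 reads against 1650 for ACTG1-206, and for ACTB the values were 9499 and 6502 (ACTB-201). TMSB4X went from 11.9% to 18.3% and CFL1 from 10.98% to 19.2%. The genomic share was higher in replicate 2 in 8 of 10 members (Fisher's exact test), where 10.4% of all genes tested and 35.2% of genes with at least 500 reads in each library were called higher. CORO1A (7 and 9 reads) and ARPC1B (2 and 1 reads) were the exceptions. ACTB also had models of the both subtype, at 10% and 18.1% of its reads, led by ENCODEHT000234691 with 3 exons and 1379 and 2714 reads.

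The share of single-interval reads went with the length of the last exon in 9 of the members. A read that stops inside the last exon crosses no junction, but where the single-interval reads lie was not tested. The most-read genomic model, a single interval, was listed at 948 bases in TMSB4X, 994 in TMSB10 and 1275 in CFL1. The last exons of their main models have 451, 287 and 612 bases, and the whole main models 628, 496 and 1234. In ACTB, ACTG1, PFN1 and ARPC2 it was shorter than the last exon, at 395, 797, 38 and 271 bases. The last junctions of 4 members are given here with 15 bases on each side, and capitals mark the last exon:
ACTB: acaatgaagatcaagATCATTGCTCCTCCT
ACTG1: accatgaagatcaagATCATCGCACCCCCA
LCP1: actcaacaatgcaaaATATGCCATCTCTAT
CORO1A: ggcactcccagctcgGATGCCGTGTCTCGG
From this junction to the annotated 3′ end there are 745 bases in ACTB-201, 863 in ACTG1-206 and 217 in CORO1A-201. Single-interval reads made up 27.2% and 42.1% of ACTB, 20.5% and 41.8% of ACTG1, and 0.377% and 0.469% of CORO1A. Spearman's rho between last exon length and single-interval share was 0.867 in replicate 1 and 0.917 in replicate 2 over the 9 members other than LCP1, which was left out after its values were seen, and 0.358 and 0.503 over all 10. Over 272 spliced genes with at least 500 reads in each library it was 0.598 and 0.606, but within the 43 of them with a last exon over 600 and up to 1000 bases, the range of the actins and CFL1, it was 0.256 and 0.308, and within the 44 with one over 1000 and up to 2500 bases, the range of LCP1, it was -0.134 and -0.123. These coefficients are across genes that share the same libraries and are given as a description.

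LCP1 went against this order, with 0.337% and 2.76% single-interval reads behind a last exon of 1798 bases. The 44 spliced genes with at least 500 reads in each library and a last exon over 1000 and up to 2500 bases had medians of 16.6% and 30.8%. With the reads of CPB2 added, a sum chosen after seeing the data, the share was 55.8% and 81.1%, above those medians in both libraries. Most reads of that sum were those of CPB2 (1490 of 2678 and 2266 of 2809). Whether they belong to LCP1 was not tested.

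**Figure D3:**
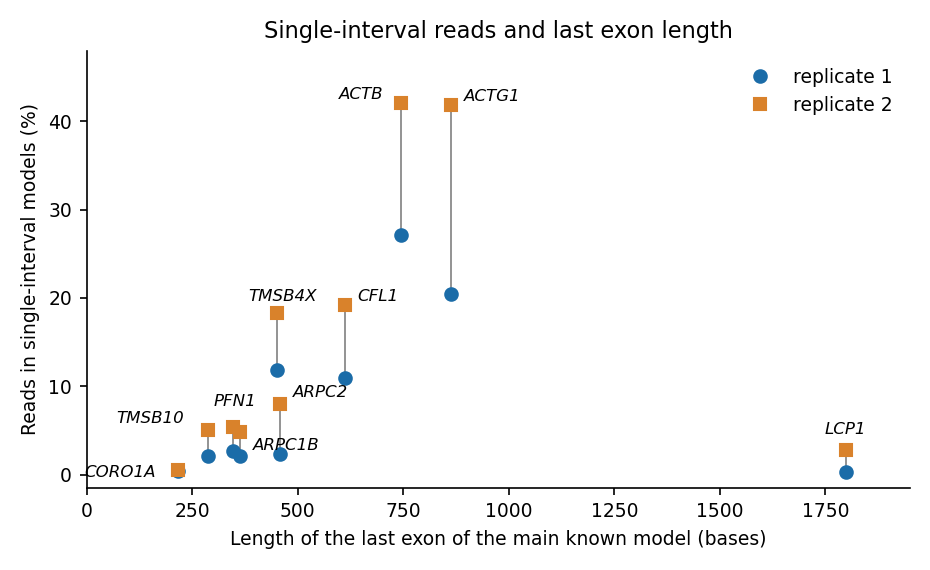
Share of the reads of each member in single-interval models (%) against the length of the last exon of its main known model (bases), with replicate 1 as circles, replicate 2 as squares and a line joining the libraries of a gene. The actins, with last exons of 745 and 863 bases, lie highest, and LCP1, at 1798 bases, lies near 0.

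Annotated isoforms with fewer exons than the main model held part of the known reads. Of the 48 known models of the members with a read, 11 other than the main model held at least 2% of the known reads of their gene in a library, and 10 of these have only the last junctions of the main model. Exon positions were compared in GENCODE release 29. These 10 are not all shorter in bases than the main model. TMSB4X-203 has 1702 bases against 628, ACTG1-210 has 2256 against 1919, and ARPC2-201 and ARPC2-209 have 1605 and 2226 against 1505. The rest of the 10 are shorter. In ACTG1, ACTG1-206 with 6 exons had 3008 and 1650 reads, whereas ACTG1-207 with 3 exons had 885 and 1296, ACTG1-210 with 5 exons 1087 and 693, and ACTG1-212 with 4 exons 434 and 430. CFL1-201 with 4 exons had 2040 and 1622 reads, and CFL1-209 with 3 exons had 493 and 680. PFN1-203 had 229 and 457 reads beside 4826 and 4326 for PFN1-201, and TMSB4X-203, with 2 exons, had 1343 and 2230 beside 16395 and 17273 for TMSB4X-204. Over the 10 genes, models with only the last junctions of the main one held 9.90% of known reads in replicate 1 and 14.2% in replicate 2.

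The main model's share of known reads was lower in replicate 2 in 6 of the 8 members that could be tested (Fisher's exact test, Benjamini-Hochberg over 1175 genes). Over all genes tested 17.5% were called lower, and among genes with at least 500 reads in each library 44.4% were. ACTG1-206 went from 55.3% to 40.4% of known reads, with an adjusted p of 6.84e-45 (Fisher's exact test). CFL1-201 went from 80.1% to 69.8%, ARPC2-202 from 79.4% to 69.3%, PFN1-201 from 95.5% to 90.4% and TMSB4X-204 from 92.4% to 88.5%. ACTB-201 went from 99.5% to 98.995%. ARPC1B and CORO1A were not called (adjusted p of 0.176 and 0.0687, Fisher's exact tests). TMSB10 and LCP1 had reads in 1 known model only.

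In 8 of 10 members the main known model differed more between the libraries than the gene did; in TMSB4X and TMSB10 its ratio was nearer to 1 than that of the gene. ACTB-201 had 8031 CPM in replicate 1 and 4303 in replicate 2, a ratio of 0.536, and the other 185 models of ACTB together had 7502 and 10729 CPM, a ratio of 1.43. For ACTG1 the ratio was 0.494 for the main model and 1.29 for the other models, and for ARPC2 0.531 and 1.32. TMSB10 was the member whose main model was higher in replicate 2, at 1804 and 1997 CPM (ratio 1.11), and its other models had a ratio of 2.38. In 9 of 10 members the other models had a ratio above 1, and LCP1 was the exception with 0.576. The main model LCP1-201 had 363 and 65.5 CPM, a ratio of 0.180, where 20 genes of similar length had a median of 0.475 and a range of 0.152 to 1.43.

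**Figure D4:**
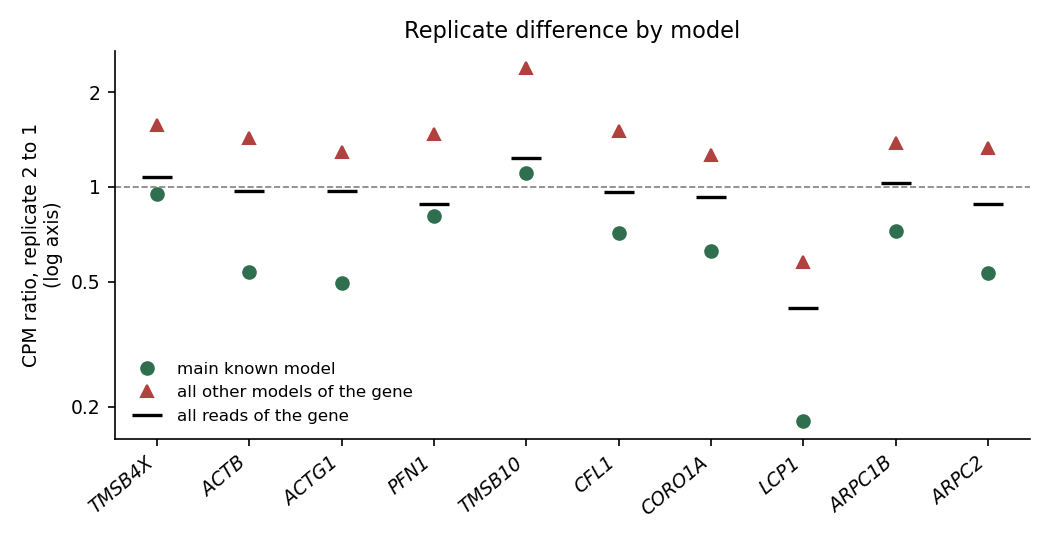
Ratio of CPM in replicate 2 to replicate 1 (log axis) for the main known model of each member (circles), for its other models together (triangles) and for all reads of the gene (bars), with a dashed line at equality. The main model lies below the other models in all 10 genes, and LCP1 has all 3 values below 1.

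In members with many exons, part of the reads could be followed by the exon number of their model. The main model and the suffix models were ordered by their number of exons, counted from the 3′ end. In LCP1, models of at least 15 exons held 61.8% of them in replicate 1 and 27.4% in replicate 2, and those of 16 exons held 48.5% and 21.02%. In CORO1A 59.6% and 40.8% had 11 exons, in ARPC1B 67.5% and 48.6% had 10 or more, and in ARPC2 73.9% and 48.1% had 11. Replicate 2 lay below replicate 1 at each exon number from 4 upward in these 4 genes. The decline was spread over several exon numbers in all 4. In ARPC2 the share fell in replicate 2 from 88.97% at 5 exons to 77.6% at 6, 61.7% at 7 and 49.0% at 9, and from 94.1% to 91.1%, 81.5% and 75.7% in replicate 1. Known models with only the last junctions of the main one were left out of these shares. They held 117 and 117 reads in ARPC2, of which ARPC2-201 with 10 exons had 91 and 55, and 39 and 58 in ARPC1B. With such reads counted, the shares at the full exon number would be lower in these 2 genes.

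**Figure D5:**
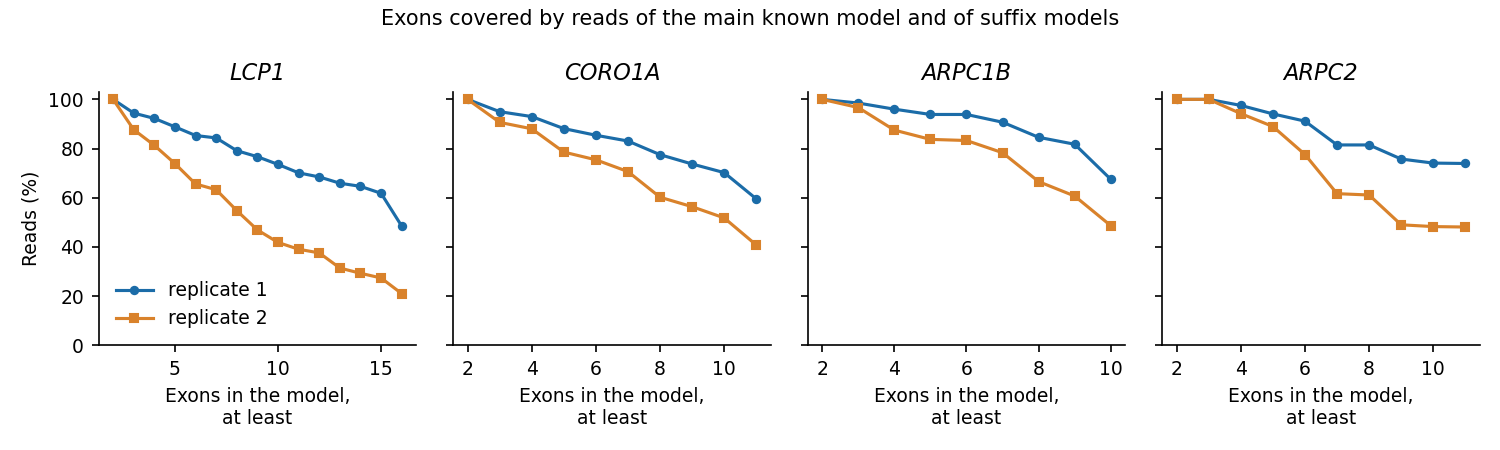
Share of reads (%) whose model has at least the given number of exons, over the main known model and the suffix models of LCP1, CORO1A, ARPC1B and ARPC2, in replicate 1 (circles) and replicate 2 (squares). At the full exon number the shares are 48.5% and 21.02% for LCP1 and 73.9% and 48.1% for ARPC2.

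Over the 10 genes together, unannotated splicing had a smaller share than in all genes, but not in each member. NIC models held 0.529% and 0.343% of the reads of the 10 genes and NNC models 1.32% and 0.931%, against 4.13% and 2.90% (NIC) and 4.38% and 3.14% (NNC) of all reads in annotated genes. In the mean of the libraries, the highest NNC shares were those of LCP1 (8.42% and 4.42%), ARPC1B (4.77% and 4.51%) and ARPC2 (4.86% and 2.17%), and those of LCP1 and ARPC1B lay above the share of all genes in both libraries. TMSB4X, the most-read member, had 0.48% and 0.49%. The most-read unannotated model was ENCODEHT000217016 of PFN1, an NNC model with 3 exons and 1287 bases, against 1291 in PFN1-201, and it had 114 and 116 reads, 2.10% and 2.19% of the gene. In LCP1, ENCODEHT000228511 had 16 exons, as LCP1-201 does, and 58 and 13 reads. In TMSB10, ENCODEHT000410195 had 3 exons and 35 and 40 reads. Of the 986 models of the members, 574 rested on 1 read and 334 had reads in both libraries.

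Processed copies of these genes took few reads. The actins and thymosins have many pseudogenes, and 8 pseudogenes of the members had a read, with 45 reads in replicate 1 and 65 in replicate 2 in all. TMSB4XP8 had 24 and 34 and TMSB4XP4 had 16 and 27, at most 0.140% of the reads of TMSB4X. Reads of near-identical copies can be exchanged in assignment, so these counts are uncertain.

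The wider actin machinery was described on 74 other genes, of which 60 had the 10 reads needed for a test. In read count, 4 were higher and 2 lower in replicate 2 (exact binomial test), where 2.72% and 2.33% of all genes tested were, and the median log2 ratio of those tested was 0.05, against 0.01 over all genes. In the Arp2/3 complex, ARPC3 had 519 and 449 CPM, ARPC5 427 and 404 and ACTR3 343 and 316, all below ARPC1B and ARPC2 in both libraries. ACTR2 was higher in replicate 2, at 161 and 228 CPM (log2 ratio 0.50), and ARPC4 lower, at 253 and 167 CPM (log2 ratio -0.60). The other called genes were PLS3 (log2 ratio 1.61), the gelsolin relative CAPG (0.81), the bundling protein FSCN1 (0.25) and the capping subunit CAPZA1 (-0.44). Of the PLS3 reads, 27 and 123 were in single-interval models. The 5 genes with the highest means were ARHGDIB (1277 CPM ± 18.0, SD, n = 2), LSP1 (770.2 ± 3.93), RHOA (648 ± 31.2), ARHGDIA (624 ± 36.0) and FSCN1 (559 ± 68.9).

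Among 165 other genes with at least 1000 reads in each library, the 3 whose known, suffix and genomic shares in the 2 libraries lay nearest to the medians of the members, by Euclidean distance over the 6 values, were LDHA (11.4 percentage points), RPS6 (13.8) and EEF1A1 (16.3). LDHA had known shares of 69.6% and 52.6%, where the medians of the members were 71.5% and 49.6%.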

How the data were processed

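The values are raw read counts per transcript model, deposited by the authors for each library without normalization. Each row also has the model's exon number and length, deposited by the authors as other, non-measured properties. Reads were aligned with minimap2 to hg38, per the submitters' processing notes, and the identifiers in the table are those of TALON; versions and read filters are not given in the sources used here. All 23533 known models matched GENCODE release 29 in identifier, length and exon number, so positions and exons were taken from it. Every column of per-sample values was matched to a sample by title.

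Gene counts are sums over the models of an annotated gene. CPM used the library totals. The count tests in known models only and without genomic models used the totals of the reads kept. With 1 group no model between conditions exists. Read counts were compared with two-sided exact binomial tests (genes with at least 10 reads in all) and shares within genes with two-sided Fisher's exact tests (at least 20 reads in each library), with Benjamini-Hochberg adjustment over all genes tested and a threshold of 0.05. For the main model's share, a gene also needed 2 known models with 10 reads. Log2 ratios had 0.5 reads added. TMM (edgeR 4.0.16) and DESeq2 1.42.0 size factors gave alternative scalings. scipy 1.17.1 was used. On simulated counts, the binomial test recovered 99 of 100 genes changed 2-fold upward and 78 of 100 changed to 0.5, and called 7 of 10427 unchanged genes, over 10627 genes. That simulation held counting error only; between the real libraries the chi-square per gene was 3.27, where counting error alone gives about 1, so p-values across these libraries also take in their other differences.

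The members and gene lists were chosen with earlier results of these data known. Named from the wider list were the paralogs, the Arp2/3 subunits, the 5 highest and the called genes. The rule for models was the most-read known model and the most-read model of each other category with 5% of the gene's reads. Not every model that meets it is named here, and others were named after their values were seen. Protein sequences were not used here. Not every marker of the B cell list is reported here.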

Additional observations from a re-analysis of the deposited data

How the results depend on the processing

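No paired analysis was possible because the series has 1 group. Without replicate 1 or replicate 2 the summed level of the members was 47261 and 47622 CPM, which only gives each library's own value. The summed mean of 47441 CPM became 46283 CPM per kilobase, 31031 CPM in known models, 37548 CPM without genomic models and 47958 CPM over annotated reads. In known models only, against the totals of known reads, 1042 genes were called in read count (324 higher, 718 lower) in place of 537. The log2 ratio then changed sign, uncalled, for ARPC1B (-0.10) and CFL1 (0.0024) and, from a call, for PFN1 (0.054). Of the 10 members, 4 were called with DESeq2 scaling (without ACTB) or with CPB2 added (without LCP1), and 7 with known models only or without genomic models. With known and ISM models counted as one class, 6 members and 523 genes (172 higher, 351 lower) were called in place of 10 and 1721, and the difference was positive in ARPC1B (0.654 percentage points), CORO1A (2.14) and LCP1 (3.31). Models with 2 or more exons gave 1008 genes. With models of at least 5 reads, the suffix difference of PFN1 was 0.0014 and the genomic difference was 0.0 in ARPC1B and -0.0057 in CORO1A, none of them called. With all models in the test of the dominant model, 10 members and 1782 genes (637 higher, 1145 lower) were called in place of 6 and 237, and ACTG1 rose by 21.2 percentage points, because its most-read model is then the genomic one. Depth was lowest for LCP1 in replicate 2, where 543 reads left a 95% interval of 15.2 to 21.7% on the known share.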
